A study of Homo sapiens with 6 samples.

Results

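The muscle microRNA host loci are the chromatin around MIR206, MIR133B, MIR1-1HG and MIR133A1HG, the genes that give rise to the microRNAs made mainly in skeletal and cardiac muscle. Peaks of all 6 ATAC-seq libraries were merged into 105569 regions of open chromatin, and a region was counted here when its top summit (the summit with the highest fold enrichment over background) lay in the body of a member gene or within 50 kb of it. This gave 35 regions. MIR206 and MIR133B, which are neighbours on chromosome 6, had the same 11 regions, MIR1-1HG on chromosome 20 had 22, and MIR133A1HG on chromosome 18 had 2.

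By their labels the cells were RH30, an established human fusion-positive rhabdomyosarcoma line, which is a soft tissue cancer with features of immature skeletal muscle. The study's text calls the ATAC-seq cells RH30 in some places and in others RH30-SR, an RH30 derivative that expresses the NF-κB inhibitor IκBα-SR, and which of these was used could not be settled here. Vector cells received Cas9 with non-targeting scramble guides (3 libraries) and MyoD-deleted cells received Cas9 with guides against MyoD, the transcription factor that starts muscle differentiation (3 libraries). The labels call the libraries of each group biological replicates and do not say whether they came from separate transductions or clones. The p-values below therefore set a group difference against the spread between these libraries only. ATAC-seq uses the Tn5 transposase to cut and tag accessible DNA, so the fragments piled up at a summit measure how open the chromatin is.

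These microRNAs are known as myomiRs. MyoD and its relatives bind E boxes, short sites of the form CANNTG, near these genes and switch them on as myoblasts differentiate. miR-1 and miR-206 favour differentiation, while miR-133a and miR-133b act on proliferation and on the repression of genes outside the muscle program. A microRNA recognizes its targets mainly through its seed, bases 2 to 8 from the 5′ end, so the 4 microRNAs of these loci form 2 families. The mature sequences are shown, from RefSeq (GRCh38.p14), because the shared seed (capitals) decides which target genes are described further on.
miR-1-3p: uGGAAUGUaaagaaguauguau
miR-206: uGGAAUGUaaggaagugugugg
miR-133a-3p: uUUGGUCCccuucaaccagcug
miR-133b: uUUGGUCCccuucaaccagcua
miR-1-3p and miR-206 were identical at 18 of 22 positions, with all 4 differences outside the seed. miR-133a-3p and miR-133b were identical at 21 of 22 positions and differed by G22A, counted from the 5′ end with the base of miR-133a-3p first. miR-1-3p and miR-133a-3p are each encoded at 2 loci, MIR1-1 and MIR133A2 in the MIR1-1HG transcript and MIR1-2 and MIR133A1 in the MIR133A1HG transcript. On hg38 the hairpins lie at chr6:52144349-52144434 (MIR206) and chr6:52148923-52149041 (MIR133B), at chr20:62554306-62554376 (MIR1-1) and chr20:62564912-62565013 (MIR133A2), all on the plus strand, and at chr18:21829004-21829088 (MIR1-2) and chr18:21825698-21825785 (MIR133A1) on the minus strand.

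The libraries held between 63140 and 80608 peaks, and more were called in each MyoD-deleted library than in vector replicates 2 and 3. No read counts were used here. The number of fragments at each summit (pileup) and the local background, which is the number expected there from the surrounding reads of the same library, were recovered from the deposited fold enrichment and −log10 p of each peak. The summit height of a region is the log2 of its pileup over the smallest background in that library, minus the median of the 47885 regions called in all 6 libraries. Before centring, heights in MyoD-deleted cells exceeded those in vector by 0.23 (log2) at the median region. Uncentred values are given where they change a call at the member loci, and by examples for the other genes examined. In bulk libraries, an open site in fewer cells and a less open site in every cell cannot be told apart. A region over the 5′ end of MYOD1 was called in all 6 libraries, and peak lists do not show the edit itself, so they do not check the deletion. Of 6 muscle markers (MYOD1, MYOG, DES, CHRNA1, CDH15 and MYF6), 5 had a region within 2 kb of the 5′ end in all 6 libraries and MYF6 had none. Summits at these starts were lower in MyoD-deleted cells for MYOD1 (−0.49, limma adjusted p = 0.0021), MYOG (−0.78, limma adjusted p = 0.000713) and DES (−0.53, limma adjusted p = 0.00598), while CHRNA1 (0.32) and CDH15 (0.02) missed the threshold, and the part of this in the results below was not tested. No region was found in any library for PTPRC, CD3E, CDH1 and PECAM1, which mark blood, epithelium and endothelium. EPCAM had a peak in 2 of 3 vector and 3 of 3 MyoD-deleted libraries, and CDH5, an endothelial cadherin, in 0 of 3 and 3 of 3. The part of these peaks in the results below was not tested.

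At the MIR206 and MIR133B locus, chromatin was less open by summit height in MyoD-deleted cells at most of the regions that could be tested. The largest changes were upstream of MIR206. Of its 11 regions, 7 were called in all 6 libraries and could be tested, and 6 of these 7 had lower summits in MyoD-deleted cells (limma, adjusted p under 0.05), against 12.8% of all tested regions. None had a higher summit, against 11.4% of all tested regions. The median change of the 7 regions was −0.93 on the log2 scale, and the median of all tested regions was 0.04. In each of the 7, every MyoD-deleted library lay below every vector library, a pattern seen in 18.1% of all tested regions. Without centring, 5 of the 7 were lower, against 8.03% of all tested regions (and 24.7% higher). By the rank of fold enrichment within each library, described further on, 1 of the 7 was lower, against 4.67% of all tested regions. The rank changes of the 7 were negative in 4 and positive in 3.

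The strongest change was 8.22 kb upstream of MIR206 (chr6:52135508-52136725, hg38), in sequence between genes. At its summit 171, 115 and 127 fragments were piled up in vector replicates 1 to 3, and 40, 30 and 34 in the MyoD-deleted replicates. The vector libraries were all high and close together, and no MyoD-deleted library came near them. The summit height fell from 1.02 ± 0.07 to −0.89 ± 0.32 (SD, n = 3 each), a change of −1.91 (standard error 0.17, limma adjusted p = 9e-07), which is 3.76-fold lower. Only 95 of the 47885 tested regions, 0.198%, had a more negative change.

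Further upstream, 11.8 kb from MIR206, the region at chr6:52132028-52132797 held 86, 66 and 73 fragments in vector and 26, 18 and 27 in MyoD-deleted libraries. The change was −1.61 (standard error 0.20, limma adjusted p = 2.24e-05), or 3.05-fold lower. Heights were closer together among the vector libraries (SD 0.08) than among the MyoD-deleted libraries (SD 0.37). A region 41.8 kb upstream (chr6:52102088-52102973), between MIR206 and the kidney gene PKHD1, had 114, 62 and 53 fragments in vector and 30, 20 and 19 in MyoD-deleted libraries. Its height also changed by −1.61 (standard error 0.25, limma adjusted p = 0.000134). Between these, 36.1 kb upstream (chr6:52107892-52109498), 196, 102 and 128 fragments compared with 61, 66 and 80, and the change was −0.93 (standard error 0.14, limma adjusted p = 0.000136). The groups did not overlap at any of these regions, and the peak of the last one narrowed from 1527 ± 87.2 bp to 1020 ± 143 bp (SD, n = 3 each). For the regions 41.8 and 36.1 kb upstream the nearest 5′ end was that of PKHD1, 14.9 and 20.7 kb from the top summit.

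The region nearest a hairpin lay just upstream of MIR206 itself (chr6:52143207-52144455, with its top summit 569 bp before the hairpin). It held 58, 58 and 67 fragments in vector and 27, 35 and 35 in MyoD-deleted libraries, and the height changed by −0.86 (standard error 0.19, limma adjusted p = 0.00317). The MIR206 hairpin (86 bp) sat at the far edge of this region. It was under a peak in MyoD-deleted replicate 1 (86 bases) and replicate 2 (5 bases) and in no vector library, although the summits of the vector libraries were higher. The summit closest to MIR133B was this same one, 5.14 kb away, and no region covered the MIR133B hairpin or the 5′ end of LINCMD1, the long non-coding RNA gene on the other strand that overlaps MIR133B.

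Downstream of both hairpins the changes were smaller. The region 12.0 kb downstream of MIR206 (chr6:52155215-52156945) was the most open of the locus, with 304, 165 and 192 fragments in vector and 125, 168 and 149 in MyoD-deleted libraries. Its height changed by −0.47 (standard error 0.12, limma adjusted p = 0.00868), and this call was lost without centring (−0.28, limma adjusted p = 0.124). The raw pileups of the groups overlapped here and the centred heights did not. Its neighbour 13.1 kb downstream had 88, 49 and 64 against 41, 47 and 49 fragments, and its change of −0.45 missed the threshold (standard error 0.16, limma adjusted p = 0.0565).

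The other 4 regions of this locus were not called in all libraries. The region 27.5 kb upstream (chr6:52116477-52117160) was called in all 3 vector libraries, with 61, 35 and 50 fragments, and in MyoD-deleted replicate 3 alone, with 9. The smallest pileup that was called anywhere in a library was 8 to 10 fragments, so this last value stood close to the limit of detection. Regions 28.9 kb and 25.3 kb upstream were called in vector replicate 1 alone, with 22 fragments each, and that library had the highest background. A region 39.0 kb downstream, near IL17A, was called with 16 fragments in vector replicates 1 and 3 and with 20 and 22 in MyoD-deleted replicates 2 and 3. By the strict count no region of the locus was gained (called in all 3 MyoD-deleted and no vector library, 4.56% of all 105569 regions) or lost (the reverse, 1.78%).

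**Figure D1:**
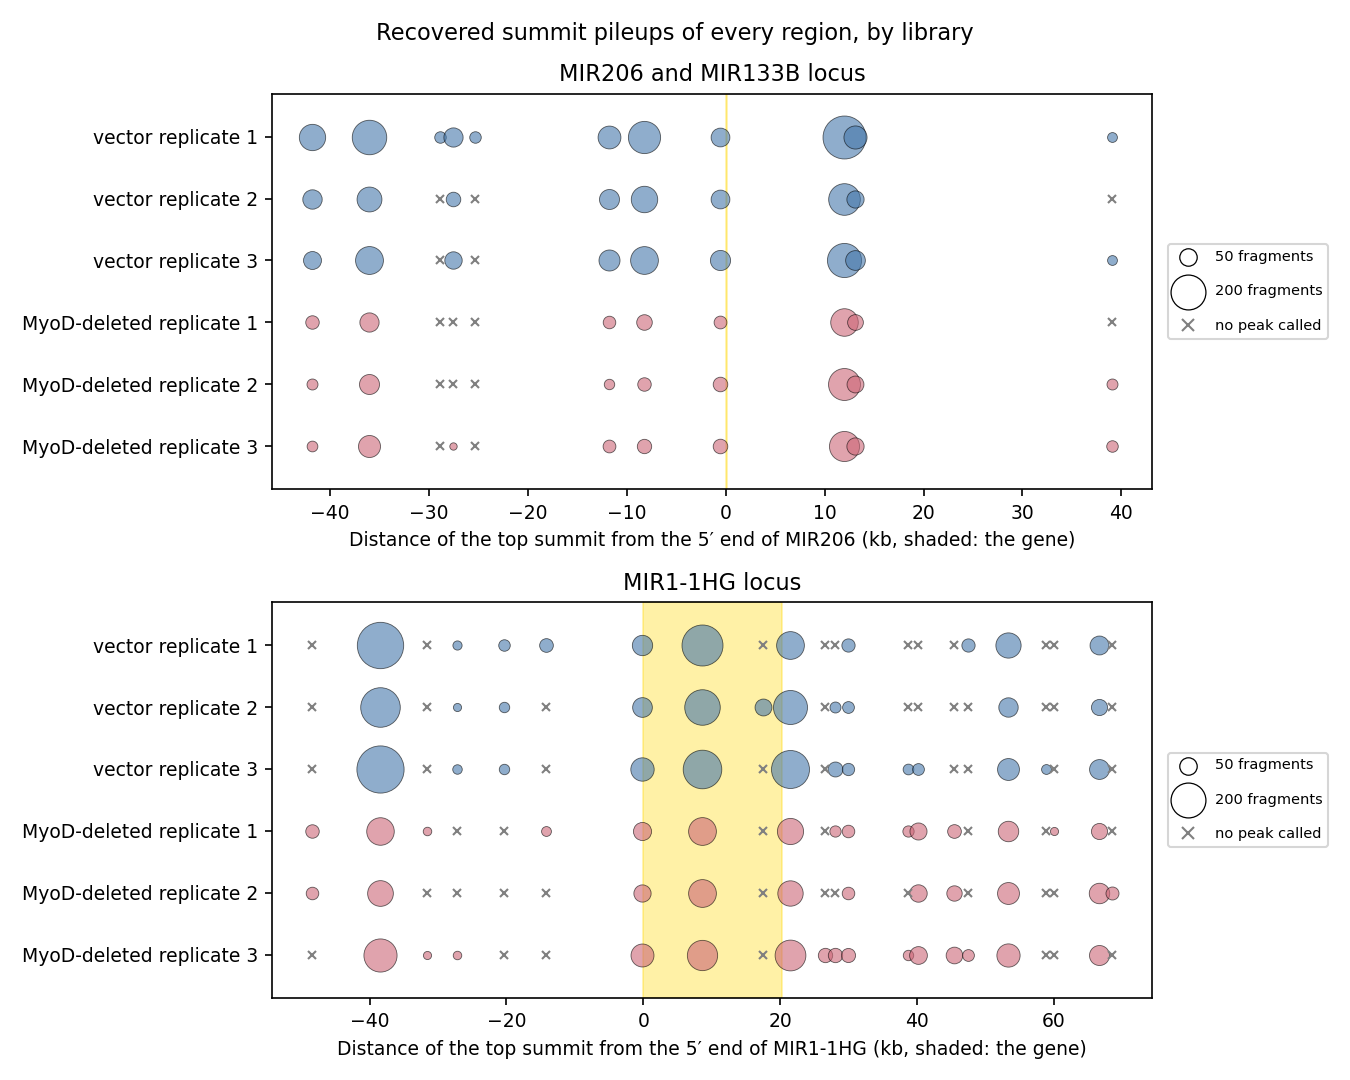
Pileup at the summit of every region of the MIR206 and MIR133B locus (11 regions) and the MIR1-1HG locus (22 regions) in each library, by distance of the top summit from the 5′ end of the gene in kb. Circle area stands for the number of fragments, a cross for no called peak, and the shaded band for the gene. Fragment numbers are not scaled between libraries. The upstream circles of MIR206 shrank in all 3 MyoD-deleted libraries, for example from 171, 115 and 127 to 40, 30 and 34 fragments 8.22 kb upstream.

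For the 6 regions with lower summits at the MIR206 and MIR133B locus, the windows that hold a searched form of the E box are shown. E boxes are the kind of site MyoD is known to bind, and only the forms listed below were searched. These windows are 5 of the 6. The window 36.1 kb upstream holds an E box of a form that was not searched. Each window reaches 100 bp to each side of the top summit and is read from hg38, plus strand, with every match to a searched motif in capitals (the E boxes CAGCTG and CAGGTG, whose reverse is CACCTG, the AP-1 site TGAGTCA or TGACTCA, the TEAD site ACATTCC or GGAATGT, and the MEF2 consensus, all on both strands).
MIR206 upstream 41.8 kb, chr6:52102448-52102648: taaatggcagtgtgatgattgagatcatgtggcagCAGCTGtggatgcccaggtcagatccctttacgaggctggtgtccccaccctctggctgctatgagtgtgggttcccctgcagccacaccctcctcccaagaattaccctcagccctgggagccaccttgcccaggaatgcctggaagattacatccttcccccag
MIR206 upstream 11.8 kb, chr6:52132428-52132628: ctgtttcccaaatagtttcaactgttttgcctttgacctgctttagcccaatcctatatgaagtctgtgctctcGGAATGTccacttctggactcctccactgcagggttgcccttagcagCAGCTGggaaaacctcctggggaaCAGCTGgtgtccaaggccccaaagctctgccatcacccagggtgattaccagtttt
MIR206 upstream 8.22 kb, chr6:52136025-52136225: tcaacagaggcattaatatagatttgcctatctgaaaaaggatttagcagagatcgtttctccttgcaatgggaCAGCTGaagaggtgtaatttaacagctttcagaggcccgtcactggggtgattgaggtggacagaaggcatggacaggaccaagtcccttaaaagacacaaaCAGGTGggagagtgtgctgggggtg
MIR206 upstream 569 bp, chr6:52143680-52143880: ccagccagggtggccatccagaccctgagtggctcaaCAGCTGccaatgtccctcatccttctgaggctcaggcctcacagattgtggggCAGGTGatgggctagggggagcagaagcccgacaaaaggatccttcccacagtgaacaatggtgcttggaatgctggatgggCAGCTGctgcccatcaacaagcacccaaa
MIR206 downstream 12.0 kb, chr6:52156215-52156415: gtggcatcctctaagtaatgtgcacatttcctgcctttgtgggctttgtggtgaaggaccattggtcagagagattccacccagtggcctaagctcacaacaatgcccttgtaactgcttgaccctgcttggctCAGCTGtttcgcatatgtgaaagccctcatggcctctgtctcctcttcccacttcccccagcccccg
The window 41.8 kb upstream held a CAGCTG site 62.5 bp from the summit. The window 11.8 kb upstream held 2 CAGCTG sites, centred 23.5 and 47.5 bp from the summit, and 1 TEAD site. The window 8.22 kb upstream, where the height fell most, held a CAGCTG site 23.5 bp from the summit and a CAGGTG site 78.5 bp from it. At MIR206 itself a CAGGTG site lay 7.5 bp from the summit between 2 CAGCTG sites at 60.5 and 74.5 bp, and the downstream window had a single CAGCTG site 36.5 bp from the summit. In all, 8 of the 11 regions (72.7%) had CAGCTG in this window, against 25.1% of all regions. The window 36.1 kb upstream, which is not shown, had no match to any of the motifs, whereas the whole region of 1607 bp held 2 CAGCTG, 3 CAGGTG or CACCTG and 2 AP-1 matches.

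At the MIR1-1HG locus the picture was mixed, with lower summits in 2 of 7 tested regions, against 12.8% of all tested regions, and with 1 of 22 regions gained and 1 lost, against 4.56% and 1.78% of all regions. The gained count was thus near the share over all regions. MIR1-1HG (chr20:62550447-62570767, plus strand) is the host transcript of MIR1-1 and MIR133A2. Of its 22 regions 7 could be tested, none of them had a higher summit (11.4% of all tested regions), and the median change was −0.19 (without centring 0.0037, also with 2 lower). In 2 of the 7 regions the MyoD-deleted libraries lay below all vector libraries, against 18.1% of all tested regions.

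Inside the gene, in the intron between the 2 hairpins and 8.54 kb from its 5′ end, a region (chr20:62558285-62559480) held 277, 208 and 245 fragments in vector and 127, 127 and 151 in MyoD-deleted libraries. The groups were far apart, and the height changed from 1.85 ± 0.07 to 1.08 ± 0.11 (SD, n = 3 each), by −0.78 (standard error 0.11, limma adjusted p = 5.6e-05). This is 1.71-fold lower. Its summit was 4.68 kb from the MIR1-1 hairpin and 5.93 kb from the MIR133A2 hairpin, and no peak of any library covered either hairpin.

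The most open region of the locus lay 38.4 kb upstream (chr20:62511394-62512714), with 354, 258 and 367 fragments in vector and 125, 109 and 181 in MyoD-deleted libraries. Its height changed by −1.19 (standard error 0.15, limma adjusted p = 1.61e-05), or 2.28-fold lower. The 5′ end nearest its top summit, 4.1 kb away, was that of a gene without a symbol and not of MIR1-1HG. The summit also moved within the region. It lay between positions 62511814 and 62512000 in the vector libraries and between 62512305 and 62512398 in the MyoD-deleted libraries, 305 bp apart at the closest. Summits of the groups were at least this far apart in 166 of all 47885 tested regions, 0.347%. This feature was picked after the values were seen, and the height compares the highest point of each library wherever it lay.

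The start of MIR1-1HG, by contrast, was called in all libraries with overlapping values. The region over its 5′ end (chr20:62549933-62550967) held 68, 64 and 90 fragments in vector and 54, 49 and 87 in MyoD-deleted libraries. The change of −0.19 (standard error 0.21, limma adjusted p = 0.568) was within the spread between replicates, and without centring it was 0.0037. The summit also lies in an intron of CRMA, a long non-coding RNA gene on the other strand. A region 21.5 kb downstream of the 5′ end, with its summit just past the end of the gene, had 127, 191 and 238 against 113, 106 and 156 fragments. Its change of −0.48 missed the threshold (limma adjusted p = 0.142). Vector replicate 1 was the low value of its group, and without that library the change was larger and passed (−0.86, limma adjusted p = 1.58e-05). The remaining tested regions, 29.9, 53.3 and 66.6 kb downstream, changed by 0.21, 0.04 and 0.15, with limma adjusted p between 0.519 and 0.882. The region 53.3 kb downstream covers the 5′ end of LINC02970, a neighbouring long non-coding RNA gene.

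The gained region stood 45.4 kb downstream of the MIR1-1HG 5′ end (chr20:62595644-62596000). It had 31, 39 and 46 fragments in the MyoD-deleted libraries and no peak in vector, where the smallest pileup called anywhere was 8 to 10. The local background here was 2.13 ± 0.23 times the smallest of the library in MyoD-deleted cells (SD, n = 3). With a similar background in vector, pileups above 8 to 10 could also go uncalled. Close to the gained region, 40.1 kb downstream, another region (chr20:62590338-62590814) had 48, 50 and 52 fragments in the MyoD-deleted libraries. It had 23 in vector replicate 3 and no peak in the other vector libraries, so without vector replicate 3 the gained regions were 2. The lost region was 20.3 kb upstream (chr20:62529482-62530501), with 22, 18 and 18 fragments in vector, so it was a weak peak. The other regions that were called in part of the libraries were weak, with 11 to 47 fragments. Across the locus 6 regions were called in MyoD-deleted libraries alone and 3 in vector libraries alone, counting the gained and the lost region, and over all regions these numbers were 23080 and 11494.

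Windows at this locus are shown for the intronic region that fell, the start of the gene, and the gained region.
MIR1-1HG intron 8.54 kb, chr20:62558885-62559085: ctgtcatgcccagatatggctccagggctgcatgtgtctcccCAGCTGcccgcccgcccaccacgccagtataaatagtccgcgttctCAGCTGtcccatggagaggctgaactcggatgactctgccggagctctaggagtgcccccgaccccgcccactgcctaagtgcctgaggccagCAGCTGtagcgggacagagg
MIR1-1HG start, chr20:62550197-62550397: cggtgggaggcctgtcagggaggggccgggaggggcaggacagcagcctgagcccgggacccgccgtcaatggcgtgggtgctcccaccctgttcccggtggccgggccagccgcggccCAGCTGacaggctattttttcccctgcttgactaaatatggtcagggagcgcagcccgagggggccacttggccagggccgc
MIR1-1HG downstream 45.4 kb, chr20:62595714-62595914: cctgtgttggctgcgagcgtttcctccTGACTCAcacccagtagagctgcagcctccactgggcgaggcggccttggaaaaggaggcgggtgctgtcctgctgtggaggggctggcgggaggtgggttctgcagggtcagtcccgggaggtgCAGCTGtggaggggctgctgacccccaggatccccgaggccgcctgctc
The intronic window held 3 CAGCTG sites, 55.5, 9.5 and 83.5 bp from the summit. The window at the start of the gene, where the height did not pass the test, held a CAGCTG site as well, 21.5 bp from the summit. The gained region had a CAGCTG site at 54.5 bp and an AP-1 site at 70 bp. The window 38.4 kb upstream had none of the motifs around its top summit, which was that of a vector library, whereas the whole region of 1321 bp held 1 CAGCTG, 3 CAGGTG or CACCTG, 1 AP-1 and 1 MEF2 match. CAGCTG was found in 9 of the 22 windows (40.9%). Over both loci it lay in 6 of the 8 windows with lower summits and in 2 of the 6 tested windows that were not called. Genome-wide it lay in 57.1% of the 6149 regions with lower summits and in 24.6% of the 36298 tested regions not called. Over all tested regions the share was 27.8%. Over all 35 regions, CAGGTG or CACCTG lay in 5 (15.9% of all regions), AP-1 in 6 (17.9%), TEAD in 1 (5.67%) and the MEF2 consensus in none (2.26%).

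**Figure D2:**
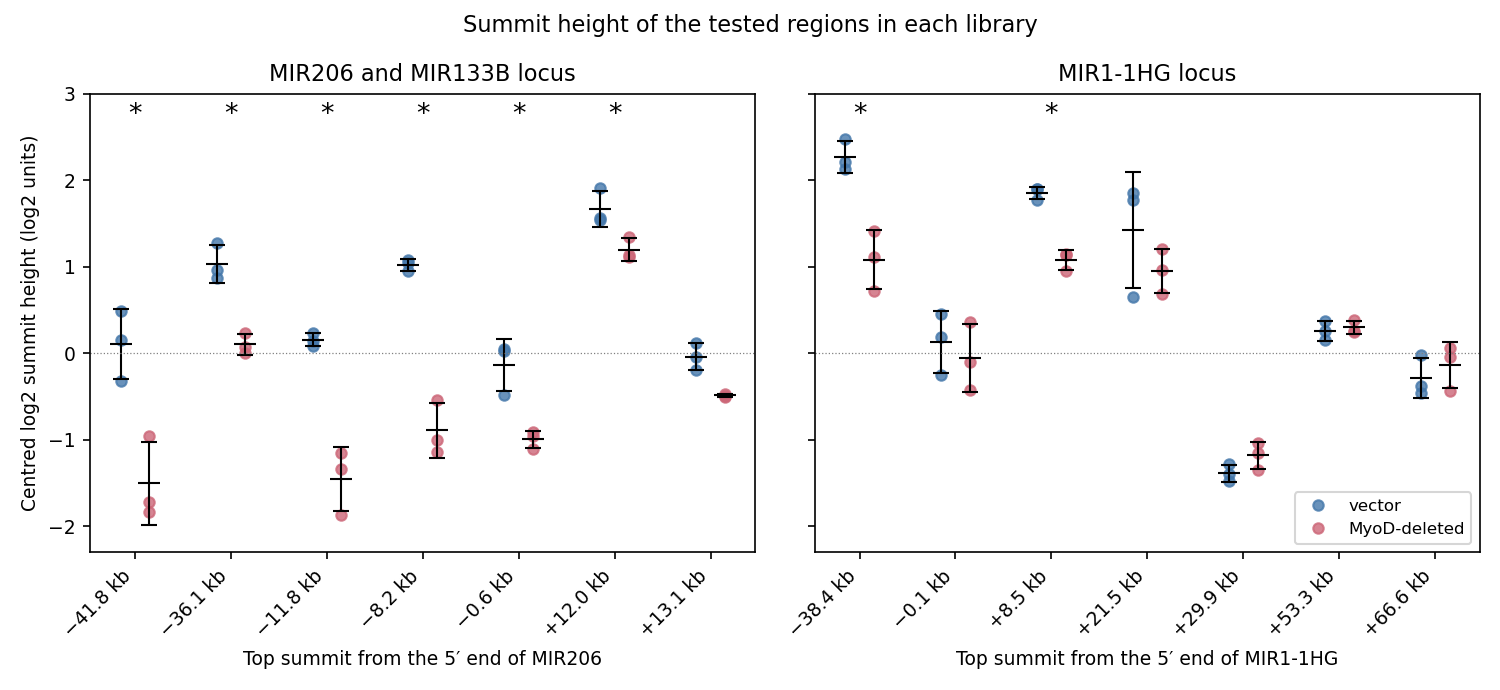
Centred log2 summit height of the 14 tested regions in each library (points), with the mean and SD of 3 libraries (black), by distance of the top summit from the 5′ end of MIR206 or MIR1-1HG. Stars mark limma adjusted p under 0.05, which 6 of 7 regions at the MIR206 and MIR133B locus and 2 of 7 at the MIR1-1HG locus passed, each with the MyoD-deleted libraries lower.

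At the MIR133A1HG locus little open chromatin was found in either group. MIR133A1HG (chr18:21825487-21831539, minus strand) lies within MIB1, a ubiquitin ligase gene of the Notch pathway on the other strand, and holds MIR133A1 and MIR1-2. No region lay in the gene or over its start, although the RefSeq promoter (chr18:21831357-21831656) has a CAGCTG site, as 17.9% of 35116 promoters do. The RefSeq promoter of MIR1-1HG (chr20:62550203-62550502) has a single CAGCTG site too, the one in the window at the start of that gene. Of the 2 regions assigned, the nearer was 21.7 kb upstream in an intron of MIB1 (chr18:21852933-21853603), with 20, 13 and 12 fragments in vector, none called in MyoD-deleted replicate 1, and 13 and 14 in replicates 2 and 3. These are weak peaks whose values overlapped between the groups. The other, 43.2 kb upstream, was called in vector replicate 3 alone with 10 fragments. Neither was tested, so no change could be measured at the second copy of miR-1 and miR-133a.

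Where summits were lower, the local background was lower as well. At the region 8.22 kb upstream of MIR206 the background was 5.82 ± 0.23 times the smallest background of the library in vector and 2.15 ± 0.36 times in MyoD-deleted cells (SD, n = 3 each), and at the region 11.8 kb upstream it was 5.38 ± 0.20 and 1.84 ± 0.28 times. In all 7 tested regions of the locus every MyoD-deleted background was below every vector background, against 15.8% of all tested regions. At the region 41.8 kb upstream it was at the smallest value of the library in all 3 MyoD-deleted libraries, so a larger difference could not have been seen there. At MIR1-1HG the MyoD-deleted backgrounds were below all vector backgrounds in 2 of 7 regions and above them in 1, against 15.8% and 26.5% of all tested regions. This background is taken from the same library around the peak, so it also holds fragments of the peaks themselves, and its part in the lower summits was not tested.

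Fold enrichment, which divides the summit by this background, did not follow the summits in a common direction. It was 4.79 ± 0.18 in vector and 4.69 ± 0.37 in MyoD-deleted cells at the region 11.8 kb upstream, although the pileup there was 3.05-fold lower after scaling. At the region 36.1 kb upstream it was 10.3 ± 0.65 in vector and 12.3 ± 0.85 in MyoD-deleted cells, and 12.0 kb downstream 7.81 ± 0.39 and 9.39 ± 1.34 (SD, n = 3 each), the higher values being those of the MyoD-deleted cells although the summits were lower. Rank changes were positive in 8 of the 14 tested regions and negative in 6. When regions were ranked by fold enrichment within each library, 1 of the 14 tested regions ranked lower in MyoD-deleted cells, against 4.67% of all tested regions, and none higher, against 4.12%. This was the region 8.22 kb upstream, which went from the 43.1 ± 2.68 to the 17.5 ± 6.95 percentile (SD, n = 3 each), a change of −0.78 in normal rank units (standard error 0.19, limma adjusted p = 0.0352). Leaving out any of 5 libraries, all but MyoD-deleted replicate 1, took this adjusted p to between 0.067 and 0.0977. The region 41.8 kb upstream went from the 60.8 ± 10.7 to the 29.5 ± 21.4 percentile (SD, n = 3 each), a change of −0.88 that missed the threshold (limma adjusted p = 0.0849), while without MyoD-deleted replicate 1 it was −1.20 (limma adjusted p = 0.0249). Ranked by −log10 p, which grows with the pileup itself, 7 of the 14 regions were lower, against 10.9% of all tested regions, and none was higher, against 9.03%. They were the same regions as those with lower summits, except the one 12.0 kb downstream of MIR206.

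**Figure D3:**
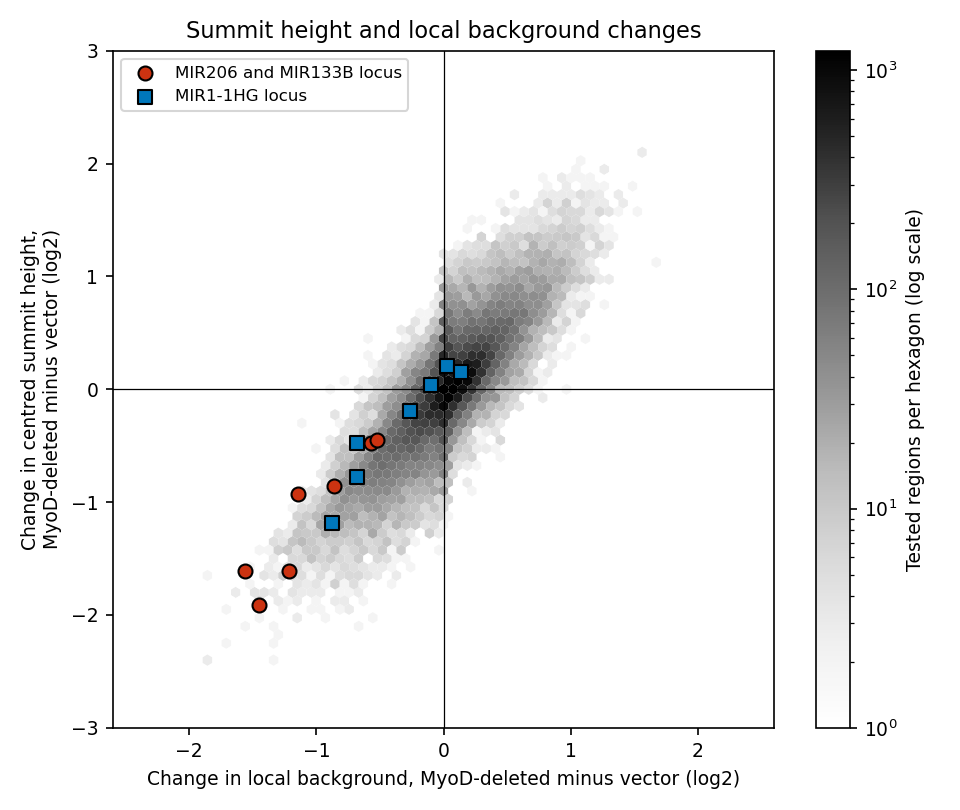
Change in centred log2 summit height against the change in log2 local background (MyoD-deleted minus vector, means of 3 libraries each) for the 7 tested regions of each locus, over all 47885 tested regions (grey hexagons, log scale of counts). The 7 regions of the MIR206 and MIR133B locus (circles) sit low on both axes, from −0.52 to −1.56 in background and from −0.45 to −1.91 in height.

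Over the 2 loci as wholes, the median height of the 7 tested regions at MIR206 and MIR133B was 0.49, 0.24 and 0.15 in vector replicates 1 to 3 and −0.54, −0.92 and −0.96 in MyoD-deleted replicates 1 to 3, a difference of −1.09 between the group means. The groups did not overlap. The two-sided exact permutation test over the 20 assignments of 6 libraries gave p = 0.1, the smallest it can give. At MIR1-1HG the medians were 0.37, 0.19 and 0.45 in vector and 0.25, 0.26 and 0.39 in MyoD-deleted libraries, a difference of −0.04 (exact permutation p = 0.8) and the groups overlapped. Whether the loci differ from each other was not tested.

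Further away from MIR206 the changes were smaller at the median, but distance could not be told apart from side. Upstream, where the largest changes lay, 1 region was tested at 50 to 200 kb (−0.26) and 0 at 200 to 500 kb. At 500 to 1000 kb upstream 1 region was tested, and its summit was lower (−0.61). Between 50 and 200 kb from the gene 4 regions could be tested, their heights changed by −0.26 to 0.07, and none was called. Between 200 and 500 kb the median change of 17 regions was −0.04 (from −1.10 to 0.33), with 3 lower and none higher. Between 500 and 1000 kb it was −0.02 in 13 regions (from −0.70 to 0.81), with 2 lower and 4 higher. Over all tested regions 12.8% were lower and 11.4% higher. Around MIR1-1HG the medians beyond 50 kb were 0.07, 0.07 and 0.04. The local background had a median change of −1.14 within 50 kb of MIR206 and −0.06 between 50 and 200 kb.

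**Figure D4:**
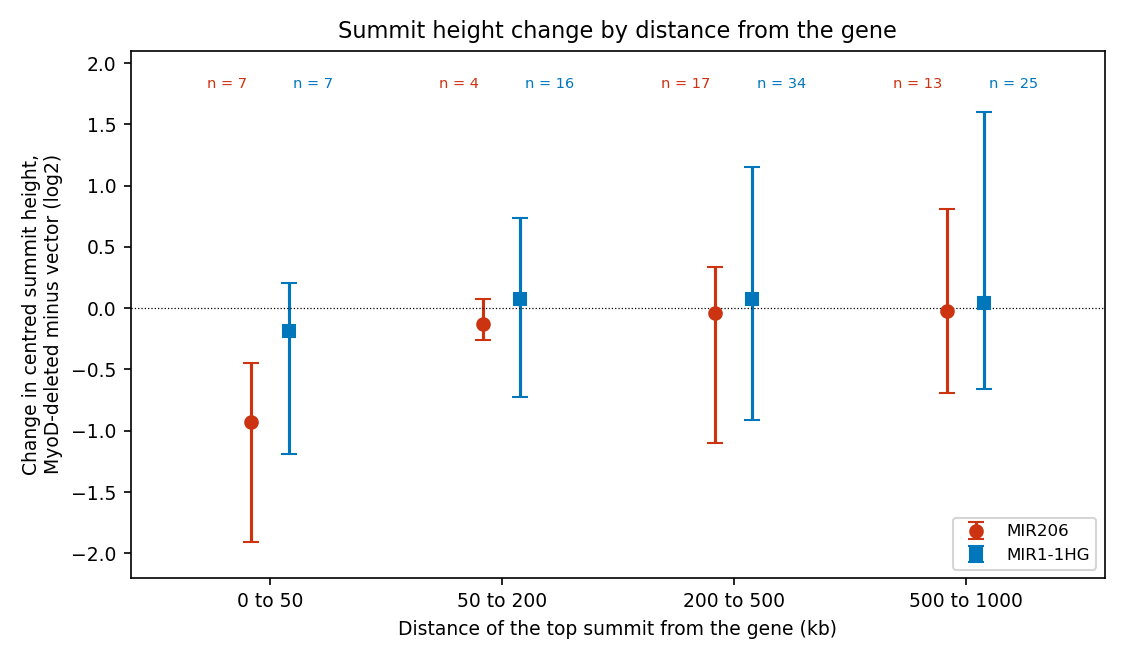
Median change in centred log2 summit height (points) with the lowest and highest change (bars) by distance of the top summit from MIR206 or MIR1-1HG in kb, with the number of tested regions above. Within 50 kb of MIR206 all 7 regions lay between −1.91 and −0.45, and the 4 regions at 50 to 200 kb lay between −0.26 and 0.07. Upstream of MIR206, the 3 outer bands held 1, 0 and 1 tested regions.

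Other muscle microRNA loci were examined by the same 50 kb rule. MIR208A and MIR208B, which lie in introns of the cardiac and slow myosin genes, MIR499A, which lies in a related myosin gene, and MIR486-1 had 31 regions together, of which 15 could be tested. Summits were lower in 8 of the 15 (53.3%, against 12.8% of all tested regions) and higher in none, with a median change of −0.61, and each of the 4 genes had at least 1 lower region within the distance, though the only such region of MIR208A was shared with MIR208B. By rank 1 region was lower and 1 higher. Without centring, a region at MIR499A (chr20:34984166-34985309) missed the threshold (−0.45, limma adjusted p = 0.0569). The region with the largest change at MIR208B (chr14:23437887-23439207) held 142, 90 and 124 fragments in vector and 48, 50 and 61 in MyoD-deleted libraries, a change of −1.08 (standard error 0.14, limma adjusted p = 3.87e-05). Its rank change was −0.32 and was not called (limma adjusted p = 0.384).

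Known targets of the 2 seed families were examined in the gene body and 5 kb upstream, and called regions went in both directions. For miR-1 and miR-206, 15 target genes held 119 regions, 64 of them tested, with lower summits in 13 (20.3%) and higher summits in 9 (14.1%), 5 gained and 1 lost. Over all tested regions 12.8% were lower and 11.4% higher, and over all regions 4.56% were gained and 1.78% lost, so the gained count was near the share over all regions. The median change was −0.02. Some lower calls were lost without centring, such as those of CCND2 (−0.20, limma adjusted p = 0.254) and NOTCH3 (−0.19, limma adjusted p = 0.289). The largest falls were in POLA1, a DNA polymerase subunit (−1.62), HDAC4, a histone deacetylase that holds back muscle genes (−1.48), and UTRN, the dystrophin relative utrophin (−1.29, from 281, 215 and 262 to 96, 93 and 106 fragments). The largest rises were in FSTL1, a secreted follistatin-like protein (2.08, from 23, 18 and 24 to 84, 73 and 107 fragments), UTRN at another region (0.94), and the receptor gene MET (0.83). HDAC4, UTRN and MET each had regions of both directions. By rank of fold enrichment 3 of the 64 tested regions were lower and 3 higher, against 4.67% and 4.12% of all tested regions. The falls named here were also called by rank and the rises were not.

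For miR-133, 10 target genes held 104 regions, 61 of them tested, with lower summits in 12 (19.7%) and higher summits in 7 (11.5%), 5 gained and none lost. Over all tested regions 12.8% were lower and 11.4% higher, and over all regions 4.56% were gained and 1.78% lost, so the higher and gained counts were near the shares over all regions. The median change was −0.03. Here too some lower calls were lost without centring, such as a region of RUNX2 (−0.23, limma adjusted p = 0.186) and a region of TAGLN2 (−0.22, limma adjusted p = 0.229). The largest falls were in PRDM16, a regulator of brown fat identity (−1.77), EGFR, the epidermal growth factor receptor (−1.30), and IGF1R, the insulin-like growth factor receptor (−1.16). The largest rises were in EGFR (1.13) and IGF1R (0.86) at other regions and in RUNX2, a regulator of bone formation (0.83). PRDM16, EGFR, IGF1R and RUNX2 each had regions of both directions. By rank 5 of the 61 tested regions were lower and 2 higher, against 4.67% and 4.12% of all tested regions. The falls named here and the rise in EGFR were also called by rank, and the rises in IGF1R and RUNX2 were not. SRF, the muscle transcription factor gene that miR-133 is best known to repress, had 2 tested regions and no call. Accessibility does not measure the RNA or protein level at which microRNAs act, and neither these levels nor the microRNAs themselves were measured in these libraries.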

How the data were processed

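The assay was ATAC-seq of RH30 cells, with 3 libraries of each group assigned from their labels. Per the study's methods, the authors mapped read pairs with Rsubread to hg38, kept proper pairs, called peaks with MACS2 and excluded blacklisted regions. The submitters' processing notes name bcl2fastq 2.20. The deposited peak list of each library gives a score, a fold enrichment (a ratio over the local background, both with a pseudocount) and −log10 p and q values at the summit. No count test could be run, since the deposited values are not read counts, and the total depth of a library is unknown.

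Pileup and background were recovered as the pair that gives both the deposited ratio and −log10 p (relative error under 1e-04 for 100% of peaks). Touching peaks were merged. Genes and hairpins are from GENCODE annotation on hg38. Regions called in all 6 libraries were tested with limma 3.58.1 (R 4.3.3, trended prior, Benjamini-Hochberg adjustment over all 47885 regions, threshold 0.05) on centred height and on the inverse-normal rank of fold enrichment. Locus medians were compared by exact permutation. The fits were tested on simulated data. All 35 regions are accounted for, and those gained, lost or called, nearest a hairpin, over a gene start or highest at a locus are given in full. The member genes, target lists and motifs were chosen with earlier results of these data known, and the distance bands and summit positions were added after the values were seen. Alternatives were other distances, peak thresholds, region definitions, scalings and each library left out. A replicate block was tried only as an alternative, since libraries with the same number did not deviate together (height correlations of −0.04, −0.20 and 0.09).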

Additional observations from a re-analysis of the deposited data

How the results depend on the processing

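The 8 regions with lower summits became 4 when counted within 10 kb of the genes, and their number stayed within 1.5 times under every other alternative run. Each of these regions except the one 12.0 kb downstream of MIR206 (lost without centring) kept its direction and its call in every alternative that could test it. The single lower rank became 7 when −log10 p was ranked and between 0 and 2 when 1 library was left out (0 without each library but MyoD-deleted replicate 1, which gave 2). Regions gained were 0 at 10 kb and 2 with summit windows, and 1 to 2 with 1 library left out (2 without vector replicate 3, MyoD-deleted replicate 2 or MyoD-deleted replicate 3). Regions lost were 0 at 10 kb, 2 with equal peak numbers, 3 when peaks had to cover 50% of a region, 2 with summit windows, and 1 to 3 with 1 library left out (3 without MyoD-deleted replicate 3). At 100 kb, 3 regions had higher summits and 1 ranked higher.

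The difference between the group means of the locus median height at MIR206 and MIR133B kept its direction in all alternatives. That at MIR1-1HG (−0.04) turned to 0.0458 at 100 kb, 0.0116 with summit windows and 0.153 without centring, was −0.34 at 10 kb and −0.238 with a minimum −log10 q of 5, and ranged from −0.113 to 0.0185 with 1 library left out (positive without vector replicate 3). For MIR133A1HG no region was tested, except 100 kb around it (0.13, exact permutation p = 0.3) and without MyoD-deleted replicate 1 (−0.12, exact permutation p = 0.5). With −log10 p in place of fold enrichment the rank changes turned to −0.40, −0.17 and −0.20 at 36.1 kb upstream and 12.0 and 13.1 kb downstream of MIR206, and to −0.065 and −0.13 at the start and 21.5 kb downstream of MIR1-1HG. Among values that were not called, the height at the MIR1-1HG start was 0.0037 without centring. With 1 library left out, the rank change there ranged from −0.0607 to 0.258, the rank change 66.6 kb downstream from −0.0626 to 0.274, and the height change 53.3 kb downstream from −0.0191 to 0.0966. The cause of these changes was not tested.

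With the replicate block, 8 regions again had lower summits and 1 ranked lower, the region 41.8 kb upstream (limma adjusted p = 0.041) in place of the one 8.22 kb upstream (limma adjusted p = 0.0555), and the numbers do not pair the libraries by design. Peak lists hold only what passed the peak caller, so a region without a peak may hold up to the smallest pileup called, 8 to 10 fragments, or more where the local background was high.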
